A study of Homo sapiens with 6 samples.

Results

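The human DNA topoisomerase genes TOP1, TOP1MT, TOP2A, TOP2B, TOP3A and TOP3B were taken by exact gene symbol from RNA-seq tables of 58735 genes, so that the set holds 6 genes. C4-2B is a castration resistant prostate cancer line of LNCaP origin, and 3 biological replicates of the parental line were compared with 3 of RC4-2B, its subclone selected with cabazitaxel (CBZ), a taxane, in a study of how taxane resistance arises. Selection used repeated 72 h CBZ treatments from 0.1 nM to 20 nM, with recovery between cycles, over 4 months. RC4-2B is a single subclone, so differences between the lines cannot be told apart from differences between clones. Both lines were propagated in RPMI-1640 with 10% FBS according to the sample labels, while the study's RNA-seq methods also name charcoal-stripped serum, and no drug is named for the cells that were sequenced.

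Topoisomerases relieve the torsional stress and the tangles that replication, transcription and chromosome segregation put into DNA. Type IB enzymes (nuclear TOP1 and mitochondrial TOP1MT) nick and reseal a single strand, type II enzymes (TOP2A and TOP2B) pass a duplex through a double-strand break, and type IA enzymes (TOP3A and TOP3B) pass single strands. Camptothecins such as irinotecan and topotecan trap TOP1 on DNA, and etoposide, mitoxantrone and the anthracyclines act on TOP2A and TOP2B, so that the amount of enzyme can bear on the response to these drugs. TOP2A accumulates in proliferating cells toward mitosis, whereas TOP2B is also made in cells that do not divide.

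The libraries held 15707134 to 18052517 counts on genes, at which 3 counts equal 0.166 to 0.191 CPM (counts scaled by library size and TMM factors). RC4-2B replicate 2 stood apart from the other replicates. Its log2 differences from the other RC4-2B libraries had an SD of 0.582 and 0.503 over genes, against 0.215 for the remaining RC4-2B pair and 0.132 to 0.192 within C4-2B, and the difference from replicate 1 followed gene GC content (Spearman rho 0.755 over genes of these libraries). Results on the topoisomerase genes and list medians are therefore also given without it and with an offset for GC content. The 6 luminal prostate markers measured here were all detected, with summed levels of 2639 to 2799 CPM in C4-2B and 1524 to 1636 CPM in RC4-2B. KLK3 (prostate specific antigen) and TMPRSS2 were lower in RC4-2B, with log2 fold changes of -4.33 and -1.08 (adjusted p = 0.00015 and 0.019, edgeR), DESeq2 also called the kallikrein gene KLK2 lower (-0.84, adjusted p = 0.13, edgeR, and 0.022, DESeq2), and FOLH1 (prostate specific membrane antigen) had the highest value at 0.06 (adjusted p = 0.82, edgeR; -0.12 without RC4-2B replicate 2 and -0.10 with the GC offset). The 10 markers of fibroblast, immune, endothelial and basal cells summed to 29.3 to 45.5 CPM in all libraries, and COL1A2, PECAM1 and KRT5 were at 0 counts. Most of that sum was COL1A1, a collagen gene of chromosome 17, whose mean was 23.3 ± 2.02 CPM in the parental line, against 28.7 ± 7.28 CPM in the resistant one (log2 fold change 0.30, adjusted p = 0.36, edgeR), which was called with the GC offset (0.63, adjusted p = 0.018) and without RC4-2B replicate 2 (0.45, adjusted p = 0.033). The endothelial marker VWF was lowest, at 7.69 ± 0.390 and 4.29 ± 0.720 CPM (-0.84, adjusted p = 0.065, edgeR, and 0.016, DESeq2), and PDGFRB highest at 0.31 (adjusted p = 0.45, edgeR). The part of these markers in the topoisomerase results was not tested.

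The length-scaled levels of the family spanned a wide range, and their balance was not the same in the libraries of the parental and the resistant line. In C4-2B the order of FPKM (counts per kb of gene, scaled to the library total) was TOP1 at 59.7 ± 3.19, TOP2A at 35.7 ± 3.30, TOP2B at 29.4 ± 1.84, TOP3A at 11.2 ± 0.201, TOP1MT at 5.45 ± 0.433 and TOP3B at 0.034 ± 0.019 (mean ± SD, n = 3). No neighbours in this order overlapped in their libraries. The order rests on the deposited gene lengths, which are not alike between genes. TOP1 was scaled on 3738 bases, near its canonical transcript of 3734 in GENCODE. TOP1MT was scaled on 6441 bases, near its exonic total of 6425, against a canonical transcript of 1942. Places between genes, such as that of TOP1MT below TOP3A, may thus change with other lengths. In RC4-2B TOP1 was at 65.4 ± 14.2 FPKM and TOP2A at 65.0 ± 9.74 FPKM, and these overlapped, TOP1 being the higher in 2 of 3 libraries. TOP2B followed at 36.1 ± 10.3 FPKM, TOP3A at 15.2 ± 1.29 FPKM, TOP1MT at 5.14 ± 1.25 FPKM and TOP3B at 0.046 ± 0.013 FPKM.

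TOP2A made up 24.7%, 26.7% and 24.1% of the summed FPKM of the 6 genes in the C4-2B libraries and 37.0%, 33.8% and 34.0% in the RC4-2B libraries. TOP1 made up 42.1%, 41.4% and 43.1% in C4-2B, against 33.6%, 36.1% and 34.9% in RC4-2B. The shares of both genes were apart between the lines in all libraries, TOP2A being higher and TOP1 lower in RC4-2B. These shares are tied to each other, and describe the balance among messages, not the amount of each. Their size also depends on the gene lengths used.

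**Figure D1:**
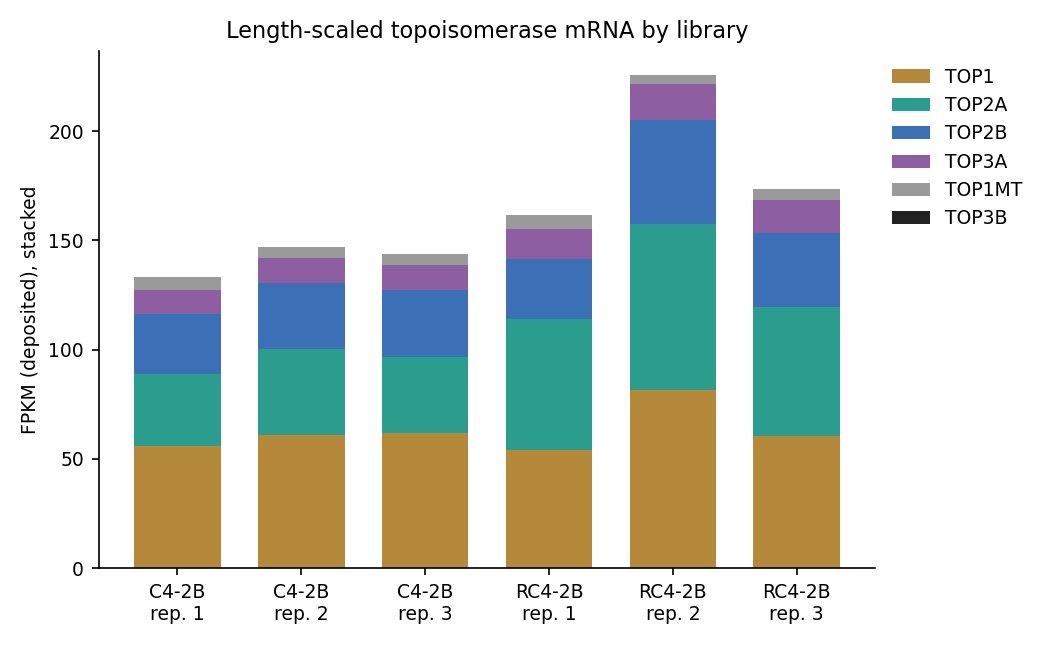
Deposited FPKM of the 6 topoisomerase genes, stacked, in each library (3 per cell line). TOP2A takes 24.1% to 26.7% of the height in C4-2B and 33.8% to 37.0% in RC4-2B, and TOP3B is too low to be seen.

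Against all genes, 5 of the 6 members passed the filter on low counts and were tested, and 1 of these, TOP2A, was higher in RC4-2B at an adjusted p under 0.05 (edgeR quasi-likelihood test, Benjamini-Hochberg over 15054 genes), where 1.08% of all tested genes were called higher and 1.98% in either direction. None was called lower, where 0.903% of tested genes were, and no member had a lower value at an unadjusted p under 0.05 in edgeR or a call in that direction in DESeq2 (2.64% of genes tested), with a GC offset (3.25%), without RC4-2B replicate 2 (6.02%) or with scaling on chromosome 17 genes (3.14%). The values of C4-2B and RC4-2B did not overlap for 2 of the 5 tested members, TOP2A and TOP3A, both higher in RC4-2B. Among all tested genes 34.1% did not overlap, and 17% did so with RC4-2B higher. The plot of topoisomerase mRNA in each library shows these values.

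**Figure D2:**
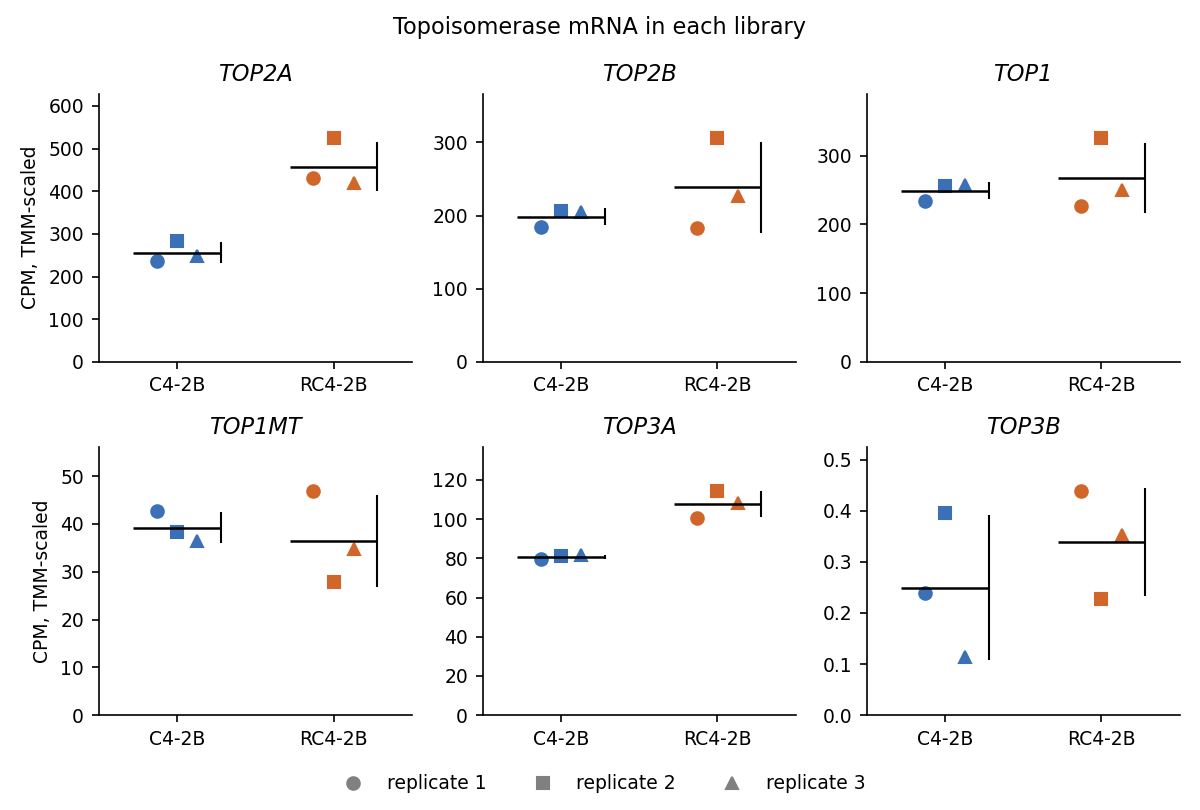
CPM (TMM-scaled) of each topoisomerase gene in each library, 3 per cell line, where symbols mark the replicate, horizontal lines the mean and vertical lines the SD. TOP2A and TOP3A are separated between the lines, and RC4-2B replicate 2 is the highest library for TOP2A, TOP2B, TOP1 and TOP3A and the lowest for TOP1MT.

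TOP2A (ENSG00000131747), the type II enzyme that decatenates sister chromatids, lies on the minus strand of chromosome 17 at 40388516 to 40417950 (GRCh38). It was measured at 237, 284 and 248 CPM in the C4-2B libraries and at 431, 524 and 419 CPM in the RC4-2B libraries. All RC4-2B libraries were above all C4-2B libraries. The means were 256 ± 24.7 and 458 ± 57.7 CPM (SD, n = 3), a 1.79-fold difference (95% interval 1.46 to 2.18; log2 fold change 0.84, SE 0.13, adjusted p = 0.018, edgeR). By p-value TOP2A was the gene in place 105 of all tested genes and in place 42 of those that were higher in RC4-2B. With DESeq2 the adjusted p was 2.05e-05.

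The size of the TOP2A difference held in every subset of libraries, but the call did not. Leaving out RC4-2B replicate 2 gave a log2 fold change of 0.73 (adjusted p = 6.6e-05, edgeR), and the GC offset gave 0.64 (95% interval 0.43 to 0.86, adjusted p = 0.0039). Leaving out C4-2B replicate 1, 2 or 3 gave log2 fold changes of 0.78, 0.92 and 0.81 with adjusted p = 0.138, 0.0713 and 0.117 (edgeR), and leaving out RC4-2B replicate 3 gave 0.90 with adjusted p = 0.0558.

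The start regions of the type II paralogs are shown because both encode targets of etoposide and because TOP2A transcription is known to run through CCAAT boxes, bound by NF-Y, and cell cycle genes homology elements with the letters TTTGAA. The windows are RefSeq sequences of build GRCh38.p14, read 5′ to 3′ on the coding strand from 250 bases before the transcription start to 50 bases after it. They are chr17:40417847-40418146 (minus strand) for TOP2A, chr3:25664858-25665157 (minus strand) for the upstream start of TOP2B, and chr17:18314945-18315244 (minus strand) for TOP3A, the other member on chromosome 17. Capitals mark CCAAT or its reverse complement ATTGG, and TTTGAA or its reverse complement TTCAAA.

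TOP2A: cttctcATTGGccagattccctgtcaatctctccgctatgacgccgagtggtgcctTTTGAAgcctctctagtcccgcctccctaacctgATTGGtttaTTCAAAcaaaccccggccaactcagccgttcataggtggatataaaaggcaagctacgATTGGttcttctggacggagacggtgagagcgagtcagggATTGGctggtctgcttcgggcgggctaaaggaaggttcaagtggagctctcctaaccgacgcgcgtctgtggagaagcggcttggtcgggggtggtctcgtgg

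TOP2B: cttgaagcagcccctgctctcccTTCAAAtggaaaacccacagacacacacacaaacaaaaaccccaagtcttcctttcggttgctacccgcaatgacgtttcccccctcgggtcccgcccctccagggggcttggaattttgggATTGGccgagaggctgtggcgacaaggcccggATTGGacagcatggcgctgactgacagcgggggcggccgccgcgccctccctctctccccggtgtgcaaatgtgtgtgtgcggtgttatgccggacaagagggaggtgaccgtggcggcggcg

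TOP3A: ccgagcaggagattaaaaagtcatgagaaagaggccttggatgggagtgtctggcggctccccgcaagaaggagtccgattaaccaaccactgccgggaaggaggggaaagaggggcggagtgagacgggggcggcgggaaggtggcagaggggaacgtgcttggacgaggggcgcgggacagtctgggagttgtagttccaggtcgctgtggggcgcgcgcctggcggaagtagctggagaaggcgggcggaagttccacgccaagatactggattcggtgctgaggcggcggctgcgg

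The TOP2A window held 4 CCAAT matches, all on the opposite strand, which began 244, 160, 93 and 53 bases before the start, and 2 TTTGAA matches. The TOP2B window held 2 CCAAT matches and 1 TTTGAA match. The window of a second TOP2B start, chr3:25664323-25664622 (minus strand), held neither, and so did the TOP3A, TOP1 and TOP3B windows. The motifs did not overlap each other. Of 35116 RefSeq windows of 300 bases, 34.6% held at least 1 CCAAT on either strand and 0.991% held 4 or more, while 15.2% held TTTGAA and 2.27% held 2 or more. The motifs were more common in the 26 windows of 23 genes from the G2 and mitosis list used below. Of these windows 80.8% held CCAAT and 11.5% held 4 or more, while 69.2% held TTTGAA and 30.8% held 2 or more. The GC box letters GGGCGG (either strand) occurred once in the TOP2A, TOP1 and TOP3B windows, at 2 places in the upstream and 1 in the second TOP2B window and at 3 in the TOP3A window, and in 45.0% of all windows. Windows were found for 5 of the 6 members, which are TOP1, TOP2A, TOP2B, TOP3A and TOP3B. A match describes the letters only, and no binding was measured here.

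TOP2B (ENSG00000077097), the type II paralog that acts at promoters and enhancers also outside the cell cycle, lies on the minus strand of chromosome 3 at 25597905 to 25664907. It was at 185, 206 and 205 CPM in C4-2B and at 183, 306 and 227 CPM in RC4-2B. The groups overlapped, and RC4-2B replicate 2 was the highest and RC4-2B replicate 1 the lowest of all 6 libraries. The log2 fold change was 0.27 (95% interval -0.14 to 0.67, adjusted p = 0.38, edgeR), which leaves room for a rise of up to 1.59-fold. Without RC4-2B replicate 2 it was 0.05, and with the GC offset 0.04 (95% interval -0.17 to 0.25).

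The ratio of TOP2A to TOP2B within a library does not depend on library scaling. On the log2 CPM scale it was 0.36, 0.47 and 0.27 in C4-2B, against 1.23, 0.78 and 0.88 in RC4-2B. The ranges were apart, and the means differed by 0.60. An exact two-sided permutation test gave p = 0.1, the smallest value that 3 against 3 libraries can give (0.2 after adjustment over 4 ratios). On the FPKM scale TOP2A was 54.7%, 56.5% and 53.1% of the type II message in C4-2B, against 68.8%, 61.7% and 63.4% in RC4-2B.

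TOP1 (ENSG00000198900), the nuclear type IB enzyme and the target of camptothecins, lies on the plus strand of chromosome 20 at 41028818 to 41124487. Its levels were 234, 256 and 257 CPM in C4-2B, against 227, 325 and 250 CPM in RC4-2B. The groups overlapped, and RC4-2B held both the highest and the lowest library. The log2 fold change of 0.10 (95% interval -0.22 to 0.43, adjusted p = 0.68, edgeR) changed sign with the GC offset, to -0.04 (95% interval -0.25 to 0.17), and without RC4-2B replicate 2, to -0.06. These intervals limit a rise to 1.35-fold in the first fit.

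The log2 ratio of TOP2A to TOP1 was 0.02, 0.15 and -0.05 in C4-2B, against 0.92, 0.69 and 0.75 in RC4-2B. All RC4-2B ratios were above all C4-2B ratios, with a difference of 0.75 (exact two-sided permutation p = 0.1, the smallest possible, and 0.2 adjusted over 4 ratios). The FPKM ratio of TOP2A to TOP1, averaged over libraries on the log2 scale, was 0.597 in C4-2B and 1.00 in RC4-2B. Its size depends on the gene lengths used.

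TOP1MT (ENSG00000184428), which acts on the mitochondrial genome, was at 42.7, 38.4 and 36.4 CPM in C4-2B and at 46.8, 27.8 and 34.7 CPM in RC4-2B. The groups overlapped, with RC4-2B replicate 2 the lowest and RC4-2B replicate 1 the highest of the 6 libraries. The gene lies on the minus strand of chromosome 8 at 143304384 to 143359979, and its log2 fold change was -0.11 (95% interval -0.54 to 0.33, adjusted p = 0.75, edgeR). The sign turned with the GC offset (0.09) and without RC4-2B replicate 2 (0.06). The log2 ratio of TOP1MT to TOP1 differed by -0.22 between the lines (exact two-sided permutation p = 0.7, adjusted 0.9), with overlapping libraries.

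TOP3A (ENSG00000177302), which dissolves double Holliday junctions with BLM and RMI1 and also separates mitochondrial DNA, lies on the minus strand of chromosome 17 at 18271428 to 18315007. It was at 79.6, 81.1 and 81.8 CPM in C4-2B and at 101, 114 and 108 CPM in RC4-2B. The C4-2B libraries lay close together and below every RC4-2B library. The means were 80.8 ± 1.13 and 108 ± 6.75 CPM (SD, n = 3), and the 1.33-fold difference (95% interval 1.13 to 1.57; log2 fold change 0.41, SE 0.10) did not pass the threshold (adjusted p = 0.083, edgeR). It passed with DESeq2 (adjusted p = 0.044), with the GC offset (log2 fold change 0.46, adjusted p = 0.023, edgeR) and without RC4-2B replicate 2 (0.37, adjusted p = 0.0092), settings in which 3.28%, 4.36% and 6.5% of all tested genes were called higher.

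TOP3B (ENSG00000100038), which acts on DNA and on messenger RNA with its partner TDRD3, was close to the limit of detection. It had 4, 7 and 2 counts in C4-2B, against 7, 4 and 6 in RC4-2B, was removed by the filter on low counts, and has no fold change here. The groups overlapped. The gene lies on the minus strand of chromosome 22 at 21957025 to 21982816, and 90.8% of its exonic bases are shared with PPM1F-AS1, a long noncoding RNA gene of the opposite strand, which had 43, 53 and 61 counts in C4-2B, against 53, 42 and 45 in RC4-2B. Whether the authors' counting used strand or set aside reads in such shared exons is not given in the sources used here, so the low TOP3B count is uncertain. The pseudogene TOP3BP1 had at most 3 counts in any library. The log2 ratio of TOP3A to TOP3B differed by -0.16 between RC4-2B and C4-2B, with overlapping libraries (exact two-sided permutation p = 0.9, adjusted 0.9).

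**Figure D3:**
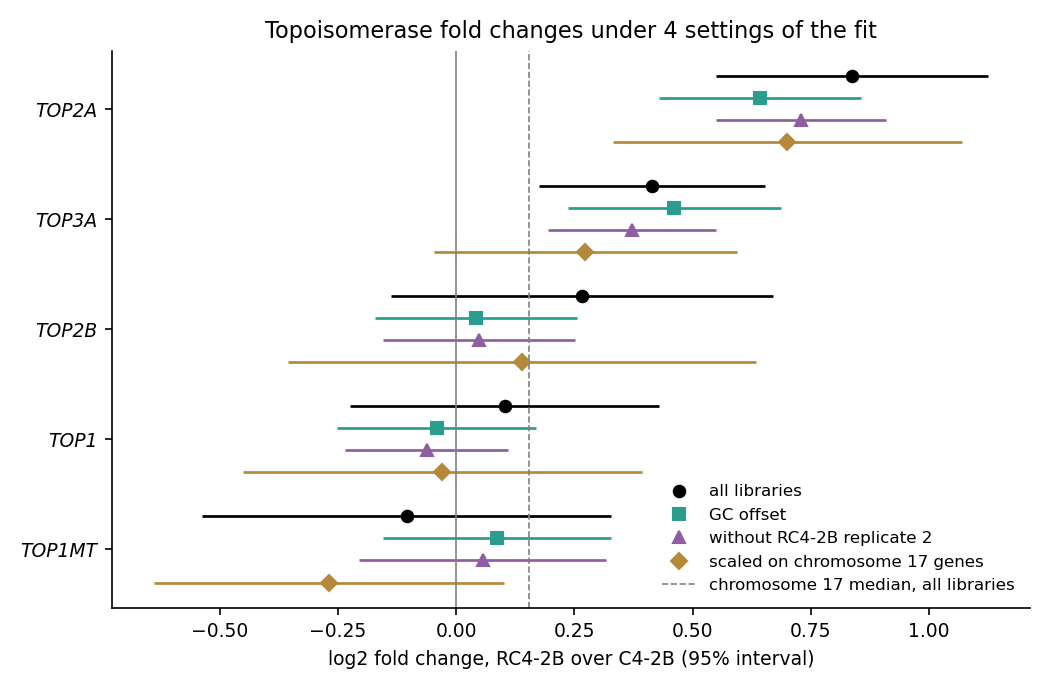
Log2 fold change of RC4-2B over C4-2B with its 95% interval for the 5 tested topoisomerase genes, with all libraries, with a GC offset, without RC4-2B replicate 2 and with scaling on chromosome 17 genes alone. The TOP2A intervals lie above 0 in all 4 settings, the TOP3A interval reaches 0 with chromosome 17 scaling, and the other 3 genes include 0 in each setting.

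TOP2A and TOP3A are on the long and the short arm of chromosome 17, whose genes as a whole were higher in RC4-2B. The 944 tested genes of chromosome 17 had a median log2 fold change of 0.15 (quartiles -0.10 and 0.40), and 66.7% lay above 0, against a median of 0.0063 and 50.7% for all tested genes. Of them, 3.18% were called higher and 0.318% lower. Divided at 25 Mb, the arms had medians of 0.15 over 281 short-arm genes and 0.15 over 663 long-arm genes. The chromosomes of TOP2B and TOP1 had medians of 0.08 (chromosome 3) and -0.05 (chromosome 20).

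Set against its own arm, TOP2A lay well above the middle and TOP3A less so. TOP2A exceeded the long-arm median by 0.68 on the log2 scale, with 95.6% of the arm's genes below it, and TOP3A exceeded the short-arm median by 0.26, with 79.4% of its arm below it. With the GC offset these margins were 0.41 (89.3% below) and 0.22 (80.4% below), and without RC4-2B replicate 2 they were 0.51 (94.0% below) and 0.15 (75.1% below). Among the 53 chromosome 17 genes with at least the TOP2A level of CPM in C4-2B, whose median log2 fold change was 0.12, TOP2A had the highest value and was the only one called higher, and KIAA0100 followed at 0.67. That place depends on the cut. Among the 704 chromosome 17 genes with an average log2 CPM over 2, 13 had a larger value than TOP2A, and 51 did with the GC offset.

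Library by library, the chromosome 17 median (704 genes with an average log2 CPM over 2) lay 0.26, 0.05 and 0.20 above the C4-2B mean in RC4-2B replicates 1, 2 and 3. TOP2A exceeded that median by 0.49, 0.99 and 0.52, against -0.12, 0.16 and -0.03 in C4-2B replicates 1, 2 and 3. TOP3A exceeded it by 0.06, 0.45 and 0.23, against -0.04, 0.01 and 0.03 in C4-2B. The groups did not overlap for either gene, but TOP3A in RC4-2B replicate 1 stood only just above the highest C4-2B library. After GC correction the median became even across the RC4-2B libraries, at 0.24, 0.28 and 0.24, the TOP2A margins were 0.49, 0.35 and 0.33, and the TOP3A margins 0.04, 0.34 and 0.22.

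**Figure D4:**
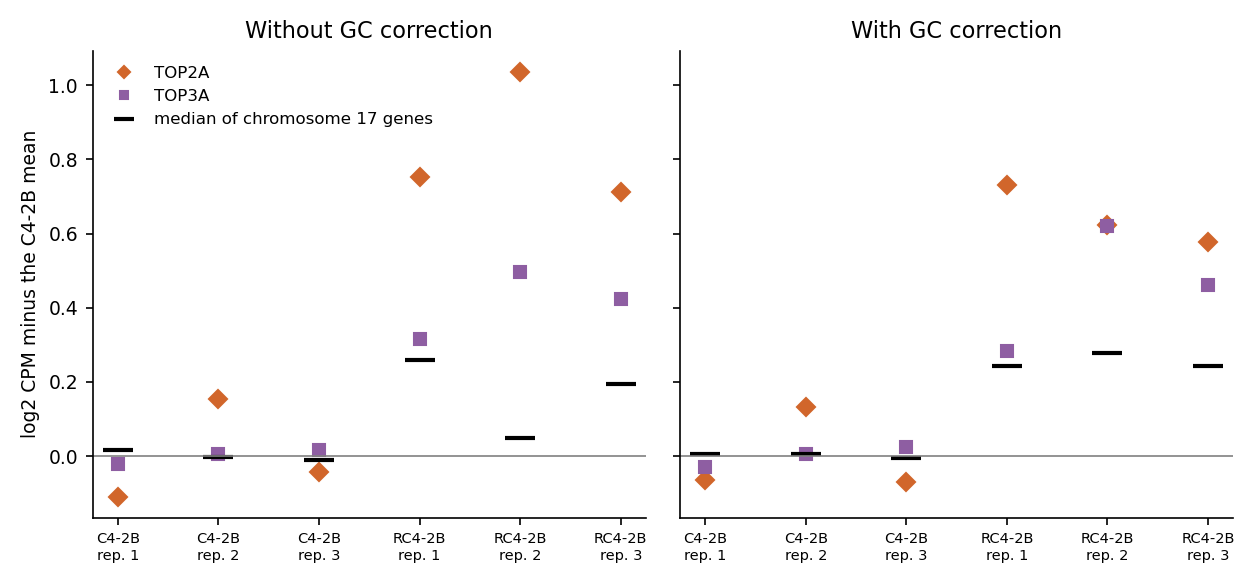
Deviation of TOP2A, TOP3A and the median chromosome 17 gene (704 genes) from the C4-2B mean of log2 CPM in each library, without (left) and with (right) GC correction. TOP2A stands 0.49 or more above the chromosome 17 median in each RC4-2B library on the left and 0.33 or more on the right, and TOP3A in RC4-2B replicate 1 lies within 0.06 of it in both.

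When the libraries were scaled on chromosome 17 genes alone, which moved the median of all genes to -0.14, the TOP2A log2 fold change was 0.70 (95% interval 0.33 to 1.07), with an adjusted p of 0.05 that lay just under the threshold (edgeR), and 0.711% of all tested genes were called higher. The TOP3A value was 0.27 (95% interval -0.05 to 0.59, adjusted p = 0.26, edgeR). TOP2A was thus called above the shift of its chromosome at the edge of the threshold, and TOP3A was not.

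All but 1 of the neighbours of TOP2A lay below it. The 34 tested genes within 1 Mb had a median log2 fold change of 0.10, and 1 of them was called higher, TNS4, which encodes a focal adhesion protein and went from 1.34 to 4.09 CPM (log2 fold change 1.60, adjusted p = 0.028, edgeR). At an unadjusted p under 0.05 in edgeR there were 12 of the 34, where 21.4% of all tested genes were, and DESeq2 called 5 higher, where it called 13.3% of the long-arm genes higher. The nearest tested genes on each side, GJD3 and IGFBP4, were near 1 CPM and had log2 fold changes of -1.05 (SE 0.78) and -0.09 (SE 0.63). The 31 tested genes within 1 Mb of TOP3A had a median of 0.21. None of these was called by edgeR, while 8 had an unadjusted p under 0.05 and 1 was called higher by DESeq2, against 6.05% of the short-arm genes. Its nearest tested neighbours MIEF2 and SMCR8 had log2 fold changes of -0.31 (SE 0.35) and 0.36 (SE 0.11). With the GC offset 6 genes near TOP2A and 5 near TOP3A were called higher, where 20.36% of long-arm and 15.66% of short-arm genes were. Without RC4-2B replicate 2 they were 10 and 7, where 27.75% of long-arm and 20.28% of short-arm genes were. These counts are thus near the shares of the arms.

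**Figure D5:**
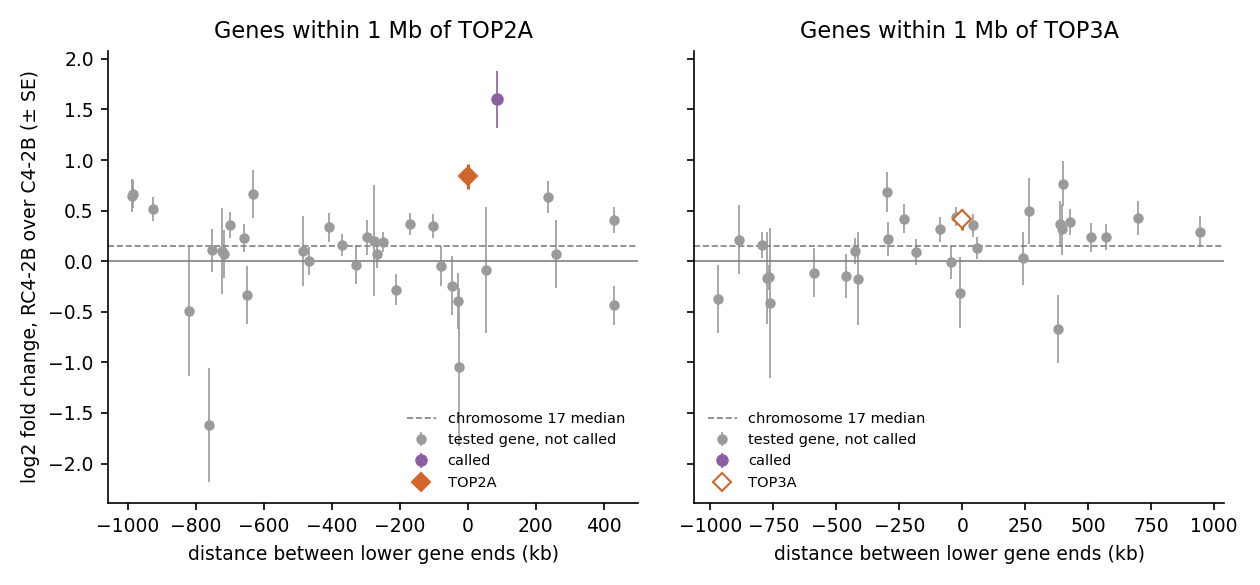
Log2 fold change ± SE of the tested genes within 1 Mb of TOP2A (left) and TOP3A (right), against the distance between the lower ends of the genes, with the chromosome 17 median of 0.15 as a dashed line. TOP2A at 0.84 is above all neighbours but TNS4, and TOP3A at 0.41 (open symbol, not called) lies among its neighbours.

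The rise of TOP2A was set beside the other genes of the cell cycle. No gene of the list of 29 G2 and mitosis genes was called by edgeR or DESeq2, while 5 had higher and 2 lower values at an unadjusted p under 0.05 in edgeR. Of all 15054 tested genes, 21.4% had such a p (1802 higher and 1418 lower), so these 7 of 29 are near the background. The same share stands behind the counts at an unadjusted p given for the other lists. Of the 29, 21 lay above 0, with a median log2 fold change of 0.17 beside 0.0063 for all genes, and the median was 0.05 without RC4-2B replicate 2 and 0.08 with the GC offset. The values ran from -0.52 for PRC1 (cytokinesis; adjusted p = 0.41, edgeR) to 0.67 for CENPE (kinetochore motor; adjusted p = 0.16; 0.36 without RC4-2B replicate 2). With the GC offset NDC80 was called lower (-0.50, adjusted p = 0.019, edgeR). Without RC4-2B replicate 2, NDC80 (-0.41, adjusted p = 0.014, edgeR) and HMGB2 (-0.33, adjusted p = 0.039) were called lower. Neither fit called a gene of this list higher, and they called 3.25% and 6.02% of all tested genes lower. In bulk RNA, a different share of cells in G2 and mitosis and a different amount of RNA per cell cannot be told apart. The study reported similar proliferation and a similar mitotic index of the lines without drug, from counted and imaged cells. Whether this held in the sequenced cultures was not tested. For the 20 S phase genes the median was -0.05 (-0.03 without RC4-2B replicate 2 and -0.01 with the GC offset), 6 lay above 0, and none was called by edgeR or DESeq2, with 1 higher and 3 lower at an unadjusted p under 0.05 in edgeR. They ran from POLA1, a subunit of DNA polymerase alpha, at -0.39 to CDC6, a replication licensing factor, at 0.35. POLA1 was called lower with the GC offset (-0.55, adjusted p = 0.0044, edgeR) and without RC4-2B replicate 2 (-0.48, adjusted p = 0.0039), and CDC6 was called higher in the latter (0.29, adjusted p = 0.0499), where 6.5% of all tested genes were. TYMS was also called lower with the GC offset (-0.37, adjusted p = 0.046, edgeR).

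Of the 12 regulators of TOP2A transcription, none was called by edgeR or DESeq2, 8 lay above 0 and the median was 0.17. Without RC4-2B replicate 2 that median was 0.02, and with the GC offset 0.05. NFYA, the DNA-binding regulatory subunit of NF-Y, had the highest value at 0.45 (SE 0.14, adjusted p = 0.13, edgeR), and was the 1 gene of this list with an unadjusted p under 0.05. The repressor E2F4 had the lowest at -0.38 (SE 0.20, adjusted p = 0.30, edgeR; -0.16 without RC4-2B replicate 2). Without RC4-2B replicate 2, NFYA was the 1 gene of the 12 that was called (0.31, adjusted p = 0.037, edgeR), where 6.5% of all tested genes were called higher.

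The 14 genes of condensin, cohesin and CTCF, which shape chromosomes together with the type II enzymes, had a median of 0.20, and 12 lay above 0. The median was 0.10 without RC4-2B replicate 2 and 0.08 with the GC offset, where 10 lay above 0. None was called by edgeR, with 2 higher and 1 lower at an unadjusted p under 0.05, and DESeq2 called 1 lower, where it called 2.64% of all genes lower. That gene, NCAPG2 of condensin II, went from 150 ± 12.2 to 107 ± 10.0 CPM (log2 fold change -0.49, SE 0.12, adjusted p = 0.076, edgeR, and 0.022, DESeq2). STAG1 of cohesin was highest at 0.62 (SE 0.22, adjusted p = 0.17, edgeR), and at 0.29 without RC4-2B replicate 2 (adjusted p = 0.049), where 6.5% of all tested genes were called higher.

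The 23 genes for the repair of topoisomerase adducts had a median of 0.15, and 15 lay above 0. With the GC offset the median was 0.0039 and 12 lay above 0, and without RC4-2B replicate 2 the median was 0.11. None was called by edgeR, with 6 higher and 1 lower at an unadjusted p under 0.05, and DESeq2 called 1 higher, where it called 3.28% of all genes higher. That gene, SPRTN, a protease that digests proteins crosslinked to DNA, went from 22.3 ± 1.23 to 31.9 ± 3.73 CPM (log2 fold change 0.52, SE 0.14, adjusted p = 0.092, edgeR, and 0.047, DESeq2). The structure-specific nuclease MUS81 was lowest at -0.60 (SE 0.30, adjusted p = 0.27, edgeR; -0.29 without RC4-2B replicate 2). RBBP8 was called lower with the GC offset (-0.52, adjusted p = 0.018, edgeR) and without RC4-2B replicate 2 (-0.53, adjusted p = 0.0050). SPRTN was called higher in both (0.47 and 0.42, adjusted p = 0.030 and 0.018), and EME1 in the latter (0.49, adjusted p = 0.0071). Of all tested genes, these fits called 4.36% and 6.5% higher and 3.25% and 6.02% lower. TDP1 and TDP2, which release trapped TOP1 and TOP2 from DNA ends, had log2 fold changes of 0.40 (adjusted p = 0.18) and 0.18 (adjusted p = 0.38, edgeR), values named after they were seen.

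All 5 partners of the TOP3 enzymes were tested and none was called by edgeR or DESeq2 or had an unadjusted p under 0.05. They ran from RMI2 at -0.27 (SE 0.16) to the helicase BLM at 0.35 (SE 0.16), with a median of 0.24 that became 0.10 without RC4-2B replicate 2 and 0.03 with the GC offset. Of the meiotic TOP6-like pair, SPO11 had 0 counts in every library, below the 0.166 to 0.191 CPM that 3 counts would give, and TOP6BL, listed as C11orf80, was at 10.0 ± 0.602 and 14.3 ± 2.31 CPM. Its log2 fold change of 0.51 (SE 0.17) had an unadjusted p of 0.015 and an adjusted p of 0.15 in edgeR, and DESeq2 did not call it (adjusted p = 0.14).

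Of 7 genes that bear on the response to topoisomerase drugs, 4 were tested. ABCB1, the efflux pump that carries etoposide and anthracyclines among many drugs, was called higher, with 1 count in all C4-2B libraries and 10742, 15948 and 13179 counts in the RC4-2B libraries (adjusted p = 4.2e-07, edgeR). The ratio of these levels, resting on that 1 count, was 41070 with an exact counting interval of 7371 to 1622000. CES2, which activates irinotecan, had a log2 fold change of -0.17 (SE 0.11, adjusted p = 0.36, edgeR). SLFN11, whose product sensitizes cells to these drugs, had 1 count in the 6 libraries together and CES1 had 0. UGT1A1, which inactivates the irinotecan metabolite, had 7 counts in all.

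Over the 6 libraries the genes whose log2 CPM followed TOP2A most closely, among 10536 protein-coding genes, were NBPF9, SORL1 and CNOT8 (Pearson r of 0.999, 0.998 and 0.997). SORL1 was itself called higher (log2 fold change 0.99, adjusted p = 0.021, edgeR). FBXO3, SMIM30 and BMPR2 followed TOP1 (0.997, 0.997 and 0.996), and GSK3B, SP3 and SCAF11 followed TOP2B (1.00, 0.999 and 0.999), all 6 of them with their highest level in RC4-2B replicate 2. With so few libraries such values are common, and 7.56%, 7.06% and 11.6% of the genes exceeded 0.9 with TOP2A, TOP1 and TOP2B. Between members, r was 0.97 for TOP2A and TOP3A (0.85 after GC correction) and 0.96 for TOP1 and TOP2B (0.87 after GC correction), while TOP1MT and TOP1 had -0.95 (-0.65 after GC correction). These correlations are over 6 libraries that share their groups and, in the first form, the GC trend of RC4-2B replicate 2.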

How the data were processed

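RNA-seq was analysed from 3 C4-2B and 3 RC4-2B libraries. Mapping by the authors used STAR and the GRCh38 build. The deposited counts are unscaled integers, 1 for each gene and library. In the deposited FPKM values each count is divided by its gene's length and by a total that was constant within a library (17878222 to 19817304). The counting program, its use of strand, its treatment of shared reads and the annotation release are not given in the sources used here. Sequencing depth was 15707134 to 18052517 counts per library, and counting floors cover counting error only.

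Counts were tested in R 4.3.3 with edgeR 4.0.16 (TMM, filterByExpr with a minimum count of 10, glmQLFit and glmQLFTest, cell line as the only term, two-sided, Benjamini-Hochberg over 15054 genes, threshold 0.05). SE is the absolute log2 fold change over the square root of F. FPKM served for levels between genes, CPM for levels between libraries. Alternatives were DESeq2 1.42.0 (the study's tool), RLE and upper-quartile scaling, no filter, a mean minimum of 10 counts, a block for the replicate number, leaving out each library, scaling on chromosome 17 genes, limma 3.58.1 on log2(FPKM + 1) and log2(FPKM + 0.1), and an offset for GC content (lowess, span 0.2, against the longest GENCODE release 44 transcript, known for 99.6% of tested genes), which also removes any mean GC trend between the lines. Ratios were tested by exact permutation (SciPy 1.17.1). On data simulated for this comparison, edgeR tested 14805 genes and recovered 71 of 100 genes changed by 1 on the log2 scale and 99 of 100 changed by 2, and called 10 of 14605 unchanged genes. Simulated counts were independent negative binomial draws, with changed genes taken at an average log2 CPM over 2. They held no GC trend in RC4-2B replicate 2 and no chromosome 17 shift, so these rates do not cover such deviations.

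The replicate numbers of the labels were not taken as pairs, since same-numbered libraries did not all correlate above 0.1 in their deviations, with or without the GC offset. The replicates are labelled as biological, and whether they came from separate cultures is not stated further, so p-values measure the spread between these libraries. No library was a copy of another (chi-square per gene of 3.38 or more within a line). The members and lists were chosen with earlier results of these data known. Named were all members, the called genes and the highest and lowest gene of each list, non-member TOP1, TOP2 and TOP3 entries, called and nearest tested genes within 1 Mb of TOP2A and TOP3A, and the 3 protein-coding genes (average log2 CPM of at least 2) most correlated with TOP1, TOP2A and TOP2B. Outside this rule, list genes with few or no counts (SPO11, SLFN11, CES1, UGT1A1, COL1A2, PECAM1 and KRT5), the transporter genes ABCG2 and ABCC1, and PPM1F-AS1, which overlaps TOP3B, were also named. TDP1, TDP2 and KIAA0100 were named after their values were seen, and the division into chromosome arms and the ranking by abundance were also added then. Some luminal markers of the planned list are not reported here.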

Additional observations from a re-analysis of the deposited data

How the results depend on the processing

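TOP2A kept a higher value in RC4-2B in all 18 alternatives of the fit. Its adjusted p passed 0.05 except when 1 of 4 libraries was left out and with limma on log2(FPKM + 0.1) (0.86, adjusted p = 0.055) or on log2(FPKM + 1) without a filter (0.84, adjusted p = 0.11). Over the 6 fits that leave out 1 library, log2 fold changes ran from 0.73 to 0.92 for TOP2A (adjusted p = 6.6e-05 to 0.14, edgeR), 0.37 to 0.47 for TOP3A (0.0092 to 0.35), 0.05 to 0.43 for TOP2B, -0.063 to 0.21 for TOP1 and -0.32 to 0.056 for TOP1MT. The negative TOP1 value and the positive TOP1MT value came without RC4-2B replicate 2. TOP3A passed with DESeq2 (0.41), the GC offset (0.46), the GC offset with a replicate block (0.46), the GC offset without RC4-2B replicate 2 (0.38) and without that library alone (0.37). In the 3 GC fits, in that order, TOP1 turned to -0.041, -0.045 and -0.12, TOP1MT to 0.086, 0.082 and 0.11, and, in the last, TOP2B to -0.031. The cause of these shifts was not tested.

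The number of topoisomerase genes called higher was 2 with DESeq2 and in the 3 GC fits, 0 with limma on log2(FPKM + 0.1) and with limma without a filter, and 0 to 2 with 1 library left out. Over all genes, 500 were higher and 402 lower with DESeq2, 604 and 646 without a count filter, 657 and 490 with the GC offset, 642 and 564 with the GC offset and block, 1037 and 1013 with the GC offset without RC4-2B replicate 2, 46 and 58 with limma on log2(FPKM + 1), 39 and 47 on log2(FPKM + 0.1), 13 and 23 with limma without a filter, and, with 1 library left out, 13 to 1000 and 31 to 925. The lowest of these counts came without C4-2B replicate 1 and the highest without RC4-2B replicate 2.

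Calls in the lists moved in the same fits. In the order GC offset, GC offset with block and GC offset without RC4-2B replicate 2 they were 2, 2 and 3 for adduct repair, 1, 1 and 1 for condensin, cohesin and CTCF, 1, 5 and 3 for G2 and mitosis genes and 2, 2 and 3 for S phase genes. Of the G2 and mitosis calls, 0, 3 and 1 were higher and 1, 2 and 2 lower. DESeq2 called 1 in adduct repair and 1 in condensin and cohesin, and the fit without a count filter 2 in the latter and 2 in G2 and mitosis. With 1 library left out the counts were 0 to 3, 0 to 2, 0 to 2 and 0 to 2 for these lists and 0 to 1 for the regulators of TOP2A transcription. The TOP2A margin over the chromosome 17 median fell from 0.68 to 0.41, 0.41 and 0.42 in the 3 GC fits and ran from 0.51 to 0.79 with 1 library left out. The log2 ratio of TOP1MT to TOP1 turned to 0.13 on GC-corrected CPM and ran from -0.53 to 0.11 with 1 library left out, and that of TOP3A to TOP3B from -0.58 to 0.33.

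With the replicate number as a block, 55 genes were higher and 74 lower in place of 162 and 136, and TOP2A stayed called (0.83, adjusted p = 0.022, edgeR). Deviations of same-numbered libraries correlated at 0.141, 0.084 and -0.011, and C4-2B replicate 3 did not correlate best with its own number. With the GC offset each did, at 0.0558, 0.0195 and 0.0133. At this depth TOP3B, SLFN11, CES1, UGT1A1 and SPO11 could not be compared, and in the simulation 71 of 100 genes changed by 1 on the log2 scale, a larger change than that of TOP2A, were recovered.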
